A study of Mus musculus with 6 samples.

Results

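A group of 10 chemokine and chemokine receptor genes of neutrophil and monocyte recruitment was described in newborn mouse eyeballs with and without a conditional deletion of Brg1. The 10 genes were the neutrophil-attracting ligands Cxcl1, Cxcl2 and Cxcl5 with their receptor Cxcr2, the monocyte-attracting ligands Ccl2 and Ccl7, and Ccl3, Ccl4, Ccl9 and Ccr1, a receptor that Ccl3 and Ccl9 engage. Each gene stands for the probe set that the platform annotation assigns to it alone and that has the highest mean over the 6 arrays. All 10 genes had such a probe set, out of 12393 genes with one, and 12 probe sets in total named a member, with 2 each for Ccl9 and Ccr1. The genes were chosen by their differences between genotypes in these same arrays, and the probe sets were selected on the mean level, so the values are a description, and the adjusted p-values show where each gene stands among all probe sets.

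The study asked which eye transcripts depend on Brg1, the ATPase of SWI/SNF chromatin remodeling complexes encoded by Smarca4. The 3 Brg1 cKO samples were eyeballs at postnatal day 1 (P1) of mice homozygous for floxed Brg1 that carried Le-Cre, and the 3 control samples were eyeballs of the same age from pups labelled wild type. All 6 pups were of a mixed background, and each sample was an individual eyeball with an array of its own. Le-Cre is active in the surface ectoderm of the head, from which lens, corneal epithelium and eyelid epidermis arise, and leukocytes do not derive from it. By the array methods these were littermates of matched stage, while the study elsewhere names floxed mice as its controls. It also describes incomplete deletion in many mutant embryos and occasional deletion of Brg1 in the germline. Whether leukocytes of these pups kept Brg1 was not tested. The study reports that Le-Cre mice did not differ from wild type in phenotype. No array came from mice with Le-Cre alone, so in these transcripts an effect of the transgene and one of Brg1 loss cannot be told apart. Smarca4 did not check the labels, as its probe sets differed by 0.18 (SE 0.19, adjusted p = 0.866) and -0.70 (SE 0.30, adjusted p = 0.598) on the log2 scale. Retina markers were present as the tissue label requires, with log2 values from 8.18 to 12.15 for 5 of 5 measured genes in all 6 arrays.

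Chemokines are small secreted proteins that bind G protein-coupled receptors on leukocytes and guide their migration along a gradient. CXC ligands with the ELR motif, among them Cxcl1, Cxcl2 and Cxcl5, act on Cxcr2 and bring neutrophils from blood into injured or infected tissue, the cornea included. Ccl2 and Ccl7 act on Ccr2 and draw monocytes, and Ccl3, Ccl4 and Ccl9 attract monocytes, macrophages and other leukocytes. Many of these genes are induced by interleukin 1, tumor necrosis factor and microbial products through the transcription factor NF-kB, in epithelial cells as well as in myeloid cells.

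The chemokine genes lie in clusters. In the RefSeq gene order, Cxcl1 and Cxcl2 are neighbours on chromosome 5, in a run that begins with Cxcl5, while Ccl9, Ccl3 and Ccl4 lie in a run on chromosome 11 with Ccl6, and Ccl2 and Ccl7 are neighbours elsewhere on that chromosome. Promoter sequence of RefSeq (build GRCm38.p6) was found for 6 of the 10 genes, Cxcl1, Cxcl2, Cxcr2, Ccl3, Ccl9 and Ccr1. The 150 bases before the annotated start are shown for the neighbours Cxcl1 and Cxcl2, whose windows share a stretch of sequence, for Ccl9, which rose as Cxcl2 did, and for Ccl3 as a gene with a large difference whose window held no match. Capitals mark matches to the NF-kB consensus, searched on both strands.

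Cxcl1, chr5:90891095-90891244, + strand: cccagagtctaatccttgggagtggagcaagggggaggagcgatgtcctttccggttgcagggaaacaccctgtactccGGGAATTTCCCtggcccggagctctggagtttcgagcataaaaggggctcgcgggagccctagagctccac
Cxcl2, chr5:90903749-90903898, + strand: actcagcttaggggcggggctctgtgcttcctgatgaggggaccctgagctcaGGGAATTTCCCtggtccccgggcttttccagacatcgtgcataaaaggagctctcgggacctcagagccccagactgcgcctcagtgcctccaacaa
Ccl9, chr11:83578637-83578786, - strand: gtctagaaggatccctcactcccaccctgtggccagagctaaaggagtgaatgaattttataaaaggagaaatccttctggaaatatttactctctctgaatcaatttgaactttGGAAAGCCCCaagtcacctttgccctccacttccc
Ccl3, chr11:83649379-83649528, - strand: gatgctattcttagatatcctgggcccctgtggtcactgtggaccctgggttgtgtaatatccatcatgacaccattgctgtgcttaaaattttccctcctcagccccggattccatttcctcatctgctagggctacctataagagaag

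Cxcl1 and Cxcl2 shared the stretch GGGAATTTCCCTGG, 14 bases long, which begins 71 bases before the start of Cxcl1 and 97 bases before that of Cxcl2. Within it the consensus matched on both strands, in matches that overlap by all but 1 base. In Ccl9 the match GGAAAGCCCC, which is read on the other strand, lay at bases 35 to 26 before the start. Windows of 300 bases, from 250 before to 50 after the start, held the consensus in 3 of the 6 members and in 4.51% of the 32851 windows in RefSeq. The letters GGGAATTTCC were found in the windows of Cxcl1 and Cxcl2 and in 0.0883% of all windows. These matches describe letters in the windows, and binding was not measured.

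As a group, the chemokine genes read higher in the Brg1 cKO eyeballs. Cxcl2, Cxcl5 and Ccl9 passed an adjusted p of 0.05 over all 22626 probe sets (limma, Benjamini-Hochberg), which is 3 of 10 genes beside 0.305% of all probe sets called higher. In 8 of the 10 genes, those other than Cxcr2 and Ccl7, every Brg1 cKO array lay above every wild-type array, as in 7.31% of all probe sets. All 10 differences were positive, as were 49% of those of all probe sets. The median difference was 3.08 on the log2 scale, beside -0.01 over all probe sets. In wild-type eyeballs the means of 8 of the 10 genes lay under log2 4.84, the 25th percentile of all values, beside 24.9% of all probe sets. Below that level, called the low end here, folds are uncertain. Ccl2 and Ccl9 were the 2 genes with wild-type means above it.

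**Figure D1:**
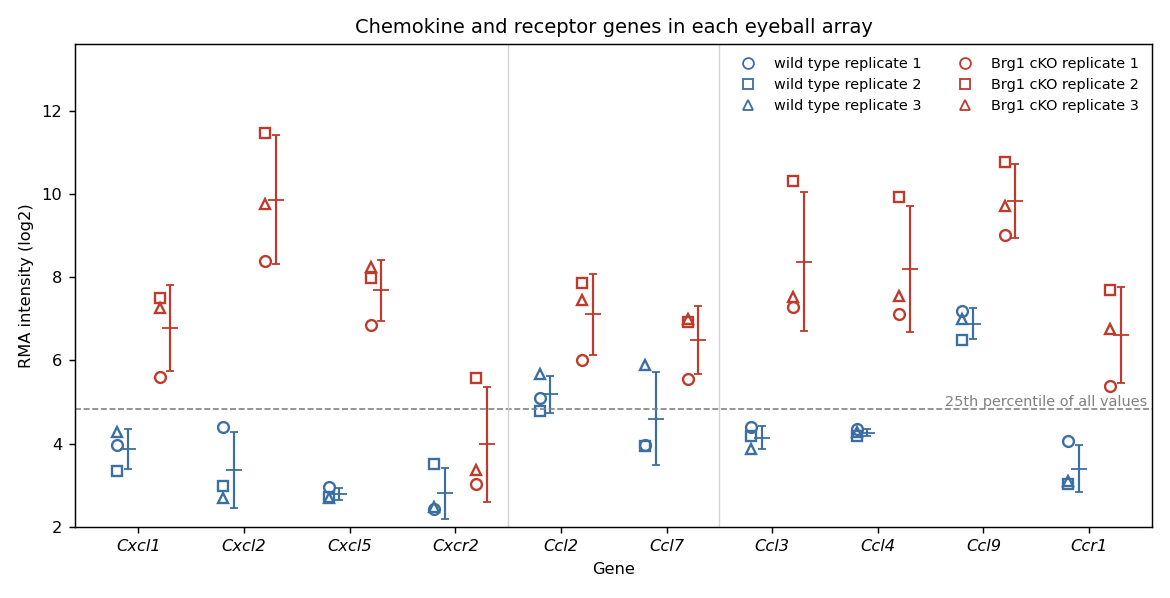
Log2 RMA intensity (vertical axis) of the 10 genes (horizontal axis) in each array, wild type in blue and Brg1 cKO in red, with means and SDs (n = 3) as bars and a dashed line at the 25th percentile of all values, 4.84. Brg1 cKO replicate 1, the open red circle, lies lowest of the 3 Brg1 cKO arrays in each gene, and the groups overlap in Cxcr2 and Ccl7.

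Among the neutrophil-attracting ligands, Cxcl5 had the difference with the smallest SE. Cxcl5, which epithelial cells release, read 2.96, 2.73 and 2.70 in wild-type replicates 1, 2 and 3, against 6.85, 7.97 and 8.23 in the Brg1 cKO replicates of these numbers (log2). The wild-type arrays lay within 0.26 of each other at the low end, and the lowest Brg1 cKO array lay 3.89 above the highest of them. Cxcl5 rose by 4.89 (SE 0.35, adjusted p = 0.00315), or 29.7-fold, and it passed in all 13 alternative fits, with adjusted p from 0.000762 to 0.0481. One of these fits, a filter on intensity, kept Cxcl5 although its wild-type mean of 2.79 lay at the low end. That fit is therefore no independent check of the rise. With 16 added to each intensity before the log2 step, which damps dim values, the rise was 9.73-fold.

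Cxcl2, a ligand that macrophages and neutrophils themselves secrete, read 4.41, 2.99 and 2.70 in wild type, against 8.37, 11.46 and 9.76 in Brg1 cKO. Both groups were spread widely, over 1.71 in wild type, against 3.08 in Brg1 cKO, and they lay 3.96 apart. It rose by 6.50 (SE 0.78, adjusted p = 0.0217), which is 90.2-fold as it stands and 35.1-fold with 16 added, where the adjusted p was 0.114. It came to 5.70 when Brg1 cKO replicate 2 was left out and to 7.24 when replicate 1 was. Cxcl2 passed in 7 of 13 alternative fits, with adjusted p between 0.00851 and 0.114. The call was lost without wild-type replicate 1 (0.074), 2 (0.114) or 3 (0.112) and without Brg1 cKO replicate 3 (0.0902). It was also lost with the replicate number as a block (0.0815).

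Cxcl1, the ligand with which epithelium and stroma recruit neutrophils, read 3.97, 3.35 and 4.28 in wild type, against 5.60, 7.50 and 7.25 in Brg1 cKO. The groups were 1.32 apart, and replicate 1 lay well under the other Brg1 cKO arrays. The difference was 2.92 (SE 0.51, adjusted p = 0.0792), or 7.55-fold and 4.18-fold with 16 added, and did not pass. Without Brg1 cKO replicate 1 it was 3.51 (adjusted p = 0.0101, in a range of 0.0101 to 0.328 over 13 alternatives).

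Cxcr2, the receptor that neutrophils carry for these ligands, read 2.43, 3.50 and 2.47 in wild type, against 3.03, 5.57 and 3.36 in Brg1 cKO. The groups overlapped, both group means lay under 4.84, and Brg1 cKO replicate 2 was the one array above that level. The difference was 1.19 (SE 0.66, adjusted p = 0.725), with a 95% interval from -0.37 to 2.74. Without Brg1 cKO replicate 2 it was 0.39 (adjusted p = 0.849). A difference in Cxcr2 was not detected, and the interval includes both no change and a rise of several fold.

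The monocyte-attracting ligands Ccl2 and Ccl7 had the smallest fitted differences of the 8 ligands, in a comparison between genes that was not tested. Ccl2, the main ligand of the monocyte receptor Ccr2, read 5.10, 4.78 and 5.66 in wild type, against 6.01, 7.86 and 7.45 in Brg1 cKO. The groups did not overlap, but Brg1 cKO replicate 1 lay only 0.35 above wild-type replicate 3. The difference was 1.93 (SE 0.48, adjusted p = 0.242), or 3.80-fold. Leaving out Brg1 cKO replicate 1 raised it to 2.47 with an adjusted p of 0.0337, the one fit in which Ccl2 passed, in a range of 0.0337 to 0.644.

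Ccl7, a neighbour of Ccl2 that acts on Ccr2 too, read 3.97, 3.94 and 5.89 in wild type, against 5.55, 6.93 and 7.0 in Brg1 cKO. Wild-type replicate 3 lay above Brg1 cKO replicate 1, and wild-type replicates 1 and 2 lay at the low end. The difference was 1.89 (SE 0.61, adjusted p = 0.428), or 3.71-fold, and Ccl7 passed in 0 of 13 alternative fits (adjusted p from 0.186 to 0.879). Without wild-type replicate 3 the difference was 2.54.

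Ccl3 and Ccl4, which encode the macrophage inflammatory proteins 1 alpha and 1 beta, had nearly the same profile. Ccl3 read 4.39, 4.18 and 3.86 in wild type, against 7.29, 10.30 and 7.52 in Brg1 cKO. Ccl4 read 4.34, 4.18 and 4.28 in wild type, against 7.10, 9.93 and 7.54 in Brg1 cKO. In both genes the wild-type arrays lay close together at the low end, and Brg1 cKO replicate 2 stood well above replicates 1 and 3, which lay near each other. Ccl3 differed by 4.23 (SE 0.74, adjusted p = 0.0813), or 18.7-fold, and Ccl4 by 3.92 (SE 0.67, adjusted p = 0.0722), or 15.2-fold. With 16 added the folds were 10.4 and 8.88.

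The calls of this pair turned on Brg1 cKO replicate 2 and on how the spread was modelled. Without that array the difference of Ccl3 was smaller, 3.26, and passed (adjusted p = 0.0027), as did that of Ccl4, 3.05 (adjusted p = 0.0024). With all 6 arrays both genes passed under an intensity trend with robust moderation (0.0439 and 0.0399) and under array weights (0.0293 and 0.0261). Over 13 alternatives the adjusted p of Ccl3 reached from 0.0027 to 0.315 and that of Ccl4 from 0.0024 to 0.312.

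Ccl9, a CC chemokine of myeloid cells in mice and a ligand of Ccr1, was expressed well above the low end in every array. Its brighter probe set read 7.19, 6.48 and 6.98 in wild type, against 9.01, 10.76 and 9.71 in Brg1 cKO. The groups lay 1.83 apart. Ccl9 rose by 2.95 (SE 0.43, adjusted p = 0.0435), or 7.71-fold. Its dimmer probe set read 3.57, 3.47 and 3.82 against 4.45, 5.34 and 5.07, again without overlap, and differed by 1.33 (SE 0.26, adjusted p = 0.112). The brighter probe set passed in 6 of 13 alternatives (adjusted p from 0.0196 to 0.201). It failed without wild-type replicate 1 (0.176), 2 (0.201) or 3 (0.165) and without Brg1 cKO replicate 3 (0.13). It also failed with 16 added (0.133), with the replicate number as a block (0.132) and with quantile normalization (0.0509).

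Ccr1, the receptor of Ccl3 and Ccl9 on monocytes, macrophages and neutrophils, read 4.05, 3.04 and 3.10 in wild type, against 5.39, 7.69 and 6.75 in Brg1 cKO. The groups lay 1.34 apart, and the Brg1 cKO arrays spanned 2.29. The difference was 3.21 (SE 0.57, adjusted p = 0.0845), or 9.27-fold, with 4.35-fold when 16 was added. Its second probe set read 2.64, 3.92 and 2.85 in wild type, against 4.78, 6.92 and 5.31 in Brg1 cKO, and differed by 2.53 (SE 0.58, adjusted p = 0.193). Without Brg1 cKO replicate 1 the brighter probe set passed, at 3.82 (adjusted p = 0.0223, in a range of 0.0223 to 0.316). Unlike Cxcr2, Ccr1 showed no overlap between genotypes in either probe set, but a difference between the receptors' changes was not tested.

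The Brg1 cKO arrays kept the same order in most of the genes. Replicate 1 was the lowest Brg1 cKO array in 10 of 10 genes, as in 28.3% of all probe sets. Replicate 2 was the highest of the 6 arrays in 8 of 10 genes, as in 21.7% of all probe sets, and replicate 3 was the highest in Cxcl5 and Ccl7. Replicate 1 was also the lowest Brg1 cKO array in 8 of 8 skeletal muscle markers, with median shifts of -0.52, 0.64 and 0.40 in Brg1 cKO replicates 1 to 3, and in 6 of 7 mast cell markers, and the part of tissue composition in the chemokine values was not tested. Against the wild-type mean, the median of the 10 genes lay 2.06, 4.09 and 3.31 higher in Brg1 cKO replicates 1 to 3. Wild-type replicates 1 to 3 lay at 0.20, -0.55 and -0.06 against the mean of the remaining wild-type pair. Summed over the 8 ligand genes, linear intensity was 193 to 303 in wild type, against 1419, 7568 and 2828 in Brg1 cKO replicates 1 to 3.

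**Figure D2:**
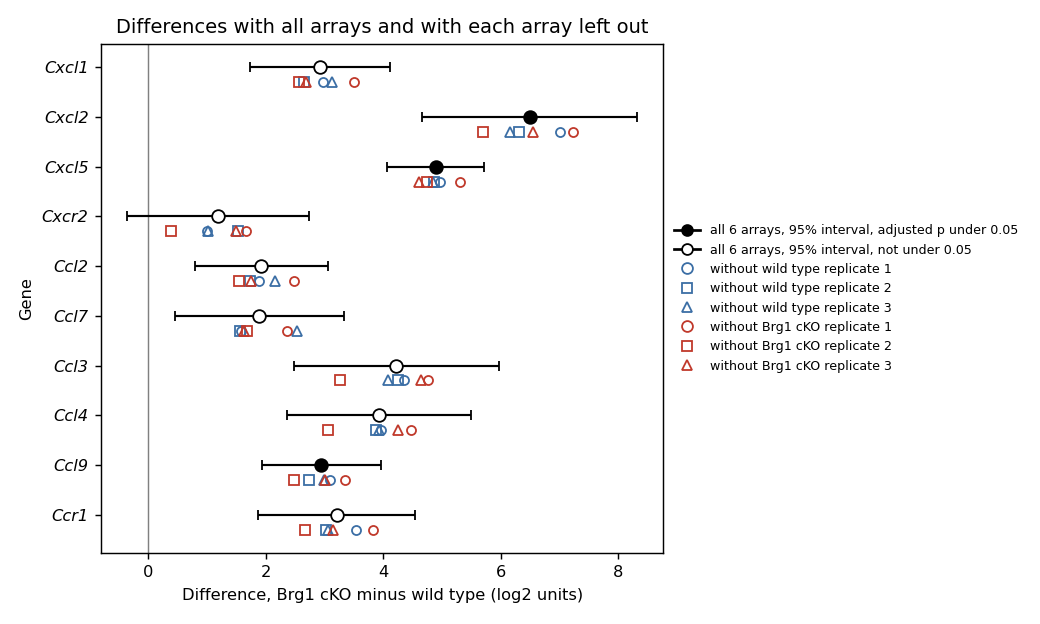
Log2 difference, Brg1 cKO minus wild type, on the horizontal axis for the 10 genes on the vertical axis, with 95% intervals from all 6 arrays (filled where adjusted p is under 0.05) and, below each, the difference without each array. The 95% interval of Cxcr2, from -0.37 to 2.74, includes 0, and leaving out Brg1 cKO replicate 2 (red square) lowers Ccl3 from 4.23 to 3.26.

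Leaving out a wild-type array or Brg1 cKO replicate 3 left Cxcl5 as the only one of the 10 genes past the threshold, beside 0.0663% to 0.15% of probe sets called higher. Without Brg1 cKO replicate 1 there were 6 genes past it, Cxcl1, Cxcl2, Cxcl5, Ccl2, Ccl9 and Ccr1, beside 0.504% of probe sets called higher. Without Brg1 cKO replicate 2 there were 5, Cxcl2, Cxcl5, Ccl3, Ccl4 and Ccl9, beside 0.455%. At an unadjusted p under 0.05, 9 of 10 genes were called, all but Cxcr2, beside 8.4% of probe sets in either direction. The same rule with a fold over 1.5 gave 9 genes as well, beside 3.54% of probe sets called higher, and template matching, a correlation with the genotype template at p under 0.05, gave 8 with that fold, beside 1.98%.

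Centred profiles over the 6 arrays were compared by their root mean square (RMS) difference, which is a description with no test. Ccl3 and Ccl4 were the most alike pair of the 10 genes, 0.241 log2 units apart. Ccl9 and Ccr1 followed at 0.326 and Cxcl1 and Ccl9 at 0.336. Cxcl2 and Cxcr2 were the farthest apart, at 2.77. Of 12374 other genes, those nearest to Cxcl2 were Clec4d, a lectin receptor of myeloid cells (0.524), Il1b, which encodes interleukin 1 beta (0.573), the matrix protease gene Mmp3 (0.851), Slfn4 (0.869) and Il1rn, which encodes the interleukin 1 receptor antagonist (0.876). Those nearest to Ccl2 were Cd86, a costimulatory molecule of antigen-presenting cells (0.165), the interferon-induced gene Oas3 (0.189), Havcr2 (0.192), the leukocyte tetraspanin gene Cd53 (0.21) and Prok2 (0.226). Nearest to Cxcl5 were Sprr1a (0.284), Sprr1b (0.403), Clec4e (0.403), Il1rn (0.512) and Mx1 (0.529). Nearest to Cxcl1 were Dio2 (0.149), Clec4n (0.206), Serpinb2 (0.33), Ptprc (0.331) and Ccl6 (0.336).

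Most of the rest of the chemokine system did not pass. Of 52 further genes in 4 lists of ligands and receptors, 46 were measured, 1 rose, 0 fell and 45 did not pass (limma, with 10 higher and 4 lower at an unadjusted p under 0.05, where 8.4% of all probe sets stood in either direction). In 14 of the 46 genes every Brg1 cKO array lay above every wild-type array, beside 7.31% of all probe sets, and in 5 the order was the opposite. Their median difference was 0.07. The 3.08 of the 10 genes described is no test against it, as those were chosen by their differences in these arrays. In 22 of the 46 genes both group means lay under 4.84, beside 1 of the 10. Ccl6, the gene next to Ccl9 and a related CC chemokine of myeloid cells, was the one that rose. It read 6.38, 6.20 and 7.19 in wild type, against 9.15, 10.42 and 10.04 in Brg1 cKO, without overlap. The rise was 3.28 (SE 0.39, adjusted p = 0.021), and a second probe set differed by 3.28 as well (adjusted p = 0.0745). Ccl6 passed in 8 of 13 alternatives (adjusted p from 0.00906 to 0.14), and it failed without wild-type replicate 1 (0.14) or 2 (0.105) and without Brg1 cKO replicate 3 (0.0905). Ccl6 also failed with 16 added (0.084) and with the replicate number as a block (0.0529).

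**Figure D3:**
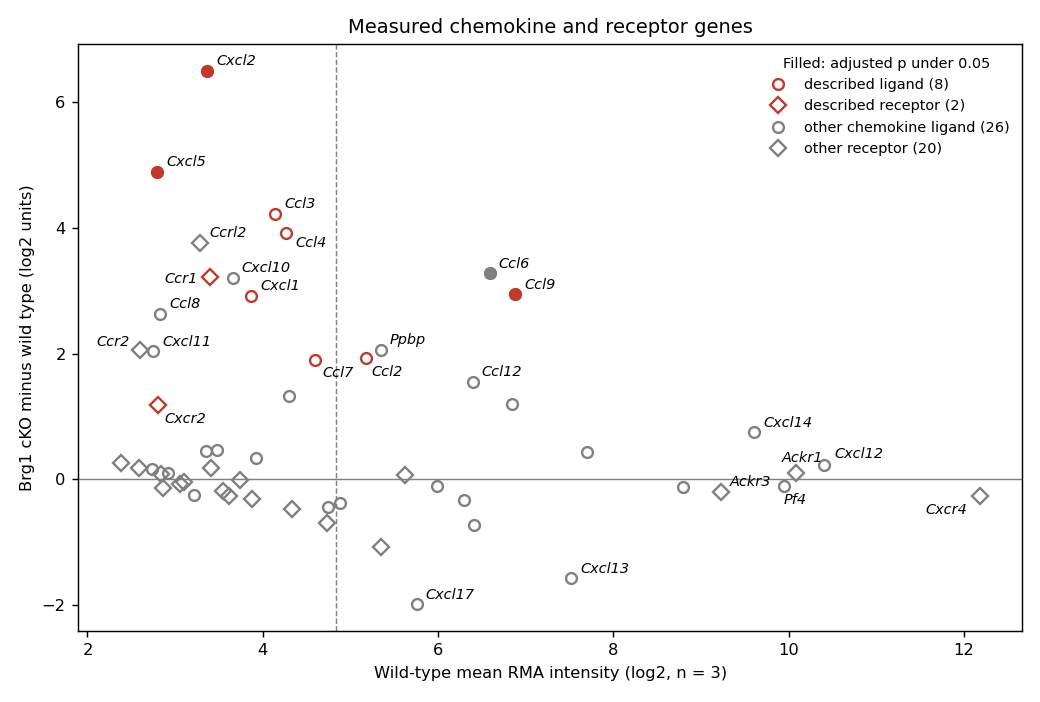
Log2 difference, Brg1 cKO minus wild type (vertical axis), against the wild-type mean in log2 units (horizontal axis) for the 10 genes described (red) and 46 other measured chemokine ligand and receptor genes (grey), with circles for ligands, diamonds for receptors and filled symbols for adjusted p under 0.05. Cxcl2, Cxcl5, Ccl9 and Ccl6 are filled, and 26 of the 46 grey genes lie left of the dashed line at 4.84.

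Neighbours in a cluster could differ widely. In the chromosome 5 run, between Cxcl5 at 4.89 and Cxcl1 at 2.92, Ppbp, a platelet chemokine, differed by 2.06 (adjusted p = 0.288), Pf4, which encodes platelet factor 4, by -0.11, and Cxcl15 by 0.17. Cxcl3 of the same run was not analysed here. In the run of Ccl2 and Ccl7, Ccl11, which attracts eosinophils, differed by -0.33, Ccl12 by 1.55, Ccl8 by 2.63 and Ccl1 by 0.48. None of them passed, and neither did Ccl2 (1.93) and Ccl7 (1.89). Ccl5, which precedes Ccl9, differed by 0.46 and lay below 4.84 in all 6 arrays. In Ppbp, Ccl12, Ccl8 and Ccl5 every Brg1 cKO array lay above every wild-type array, as in 7.31% of all probe sets.

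Of 13 measured ligands in the list of further CXC, CX3C and XC chemokines, 0 passed, with 5 higher and 2 lower at an unadjusted p under 0.05. Smallest in p were Cxcl10, an interferon-induced ligand of T cells, with a difference of 3.21 (SE 0.72, adjusted p = 0.182), Cxcl11 with 2.04 (adjusted p = 0.262), whose second probe set differed by -0.34, and Cxcl17, a mucosal chemokine, with -1.98 (adjusted p = 0.265). Cxcl17 read 6.58, 5.59 and 5.10 in wild type, against 3.58, 4.74 and 3.01 in Brg1 cKO, so that its groups did not overlap in the opposite direction. Of 14 measured chemokine receptors besides Cxcr2 and Ccr1, 0 passed (1 higher and 1 lower at an unadjusted p under 0.05). Ccr2, the receptor of Ccl2 and Ccl7, read 2.42, 2.77 and 2.62 in wild type, against 3.73, 5.80 and 4.46 in Brg1 cKO, a difference of 2.06 (SE 0.48, adjusted p = 0.198) at the low end. Its other probe sets differed by 1.11 (adjusted p = 0.0952) and -0.031, so they disagree. Ccr9 differed by -1.08 (adjusted p = 0.284), with -0.50 and 0.06 in its other probe sets, and Cxcr3 by -0.47 (adjusted p = 0.668). In 11 of the 14 receptors both group means lay under 4.84. Of 6 atypical and related receptors 0 passed, with 1 higher and 1 lower at an unadjusted p under 0.05. Ccrl2, which presents the attractant chemerin on activated leukocytes and endothelium, differed by 3.76 (SE 0.70, adjusted p = 0.104), Ackr2, a scavenger of CC chemokines, by -0.69 (adjusted p = 0.299), with 0.31 in its second probe set, and Cmklr1, the signalling receptor of chemerin, by -0.31 (adjusted p = 0.756).

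In other parts of the recruitment pathway Fpr2 and Il1b passed. Of 7 measured receptors for attractants and growth factors of myeloid cells, Fpr2, a formyl peptide receptor of neutrophils and monocytes, rose from 3.66, 3.53 and 3.89 in wild type to 8.16, 10.10 and 8.59 in Brg1 cKO, by 5.26 (SE 0.47, adjusted p = 0.00703). The other 6 did not pass, but 6 of the 7 were higher at an unadjusted p under 0.05, beside 8.4% of all probe sets in either direction. In 6 of the 7 every Brg1 cKO array lay above every wild-type array, beside 7.31%. Fpr2 passed in 10 of 13 alternatives (0.00129 to 0.0658) and failed without wild-type replicates 1 (0.0658) and 2 (0.0522) and with 16 added (0.0655). Of 15 measured inducers of chemokine genes, Il1b rose by 6.84 (SE 0.52, adjusted p = 0.0036), and it passed in all 13 alternatives. The other 14 inducers did not pass, and 7 of the 15 were higher at an unadjusted p under 0.05. Of 12 genes that act downstream of chemokine receptors 0 passed, with 5 higher and 0 lower at an unadjusted p under 0.05. Smallest in p there were Rgs1, which dampens G protein signals (0.84, adjusted p = 0.111), Vav1 (1.46, adjusted p = 0.257) and Rac2, a GTPase of leukocytes (1.10, adjusted p = 0.397).

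Pan-leukocyte markers and some myeloid markers read higher in the Brg1 cKO arrays. In bulk eyeballs, more or fewer cells of a type and more or less RNA per cell cannot be told apart. Ptprc, the pan-leukocyte phosphatase CD45, read 4.55, 4.23 and 5.16 in wild type, against 6.16, 7.88 and 7.16 in Brg1 cKO, a difference of 2.42 (SE 0.45, adjusted p = 0.099). None of the 6 pan-leukocyte markers passed. In 6 of 6 every Brg1 cKO array lay above every wild-type array, beside 7.31% of all probe sets. All 6 were higher at an unadjusted p under 0.05, beside 8.4% of all probe sets in either direction. Their summed intensity was 2106 to 2669 in wild type, against 4501 to 9710 in Brg1 cKO. The median shift of these markers, 1.09, 2.35 and 1.24 in Brg1 cKO replicates 1 to 3, was likewise highest in replicate 2.

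Of 12 measured neutrophil markers, the calprotectin genes S100a8 and S100a9 rose, by 4.99 (SE 0.56, adjusted p = 0.0181) and 4.55 (SE 0.44, adjusted p = 0.00935), and 10 did not pass. Stressed keratinocytes also express both genes. Mpo and Elane, enzymes of neutrophil granules made in the bone marrow, lay between 2.29 and 2.95 in all 6 arrays, at the low end. Other granule genes of the list read highest in Brg1 cKO replicate 2, where Ngp was at 6.62, beside 4.27 and 4.42 in the other Brg1 cKO arrays and 3.28 to 4.30 in wild type. Summed intensity of the neutrophil list, which S100a8 and S100a9 dominate in Brg1 cKO, was 607 to 1174 in wild type, against 7177 to 23356 in Brg1 cKO. By the median over the 12 markers, Brg1 cKO replicates 1, 2 and 3 lay 0.06, 1.88 and 0.20 above wild type, and replicate 2 alone stood apart. Ly6g and Retnlg were not analysed here.

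Of 6 measured monocyte markers, Cd14, the lipopolysaccharide co-receptor, rose by 5.92 (SE 0.55, adjusted p = 0.00824) and Ms4a6d by 2.56 (SE 0.34, adjusted p = 0.0287), and Plac8, the first of the list, differed by 1.02 (adjusted p = 0.756). The other Ms4a6d probe sets differed by 2.45 (adjusted p = 0.0361) and 0.30 (adjusted p = 0.746), so they disagree. Summed intensity of the 6 monocyte markers was 1006 to 1527 in wild type, against 2153 to 6437 in Brg1 cKO. Of 9 measured macrophage markers, Fcgr1, a receptor for immunoglobulin G, rose by 2.83 (SE 0.36, adjusted p = 0.0248), while Adgre1, which encodes F4/80, differed by 0.57 (adjusted p = 0.708). The macrophage sum was 2345 to 3218 in wild type, against 3408 to 6586 in Brg1 cKO. Of 8 measured T and B cell markers 0 passed, at an unadjusted p under 0.05 too, and Cd3e lay between 3.04 and 3.72. The calls of these markers were lost in some fits that left out 1 array, while the differences stayed high. They lay from 4.38 to 5.32 for S100a8, 4.05 to 4.85 for S100a9 and 5.33 to 6.31 for Cd14. Those of Ms4a6d lay from 2.37 to 2.88 and those of Fcgr1 from 2.47 to 3.13. Without a wild-type array only 24 to 36 of all probe sets passed, beside 115 with all arrays. Without wild-type replicate 1, none of S100a8, S100a9, Cd14, Ms4a6d and Fcgr1 passed (adjusted p = 0.0725, 0.0725, 0.0714, 0.163 and 0.153), nor without wild-type replicate 2 (0.0856, 0.0597, 0.0564, 0.151 and 0.0856). Without wild-type replicate 3, S100a8 (0.0992) and Fcgr1 (0.122) failed, and without Brg1 cKO replicate 3, S100a8 (0.0509), Ms4a6d (0.116) and Fcgr1 (0.0968) did. Calls were also lost with all 6 arrays. With 16 added, S100a8 (0.0797), Cd14 (0.0506), Ms4a6d (0.0937) and Fcgr1 (0.0937) failed, while S100a9 passed (0.0481). With the replicate number as a block, S100a8 (0.0815), S100a9 (0.053) and Ms4a6d (0.0604) failed, while Cd14 (0.0435) and Fcgr1 (0.0302) passed. The part of myeloid cells in the chemokine values was not tested.

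**Figure D4:**
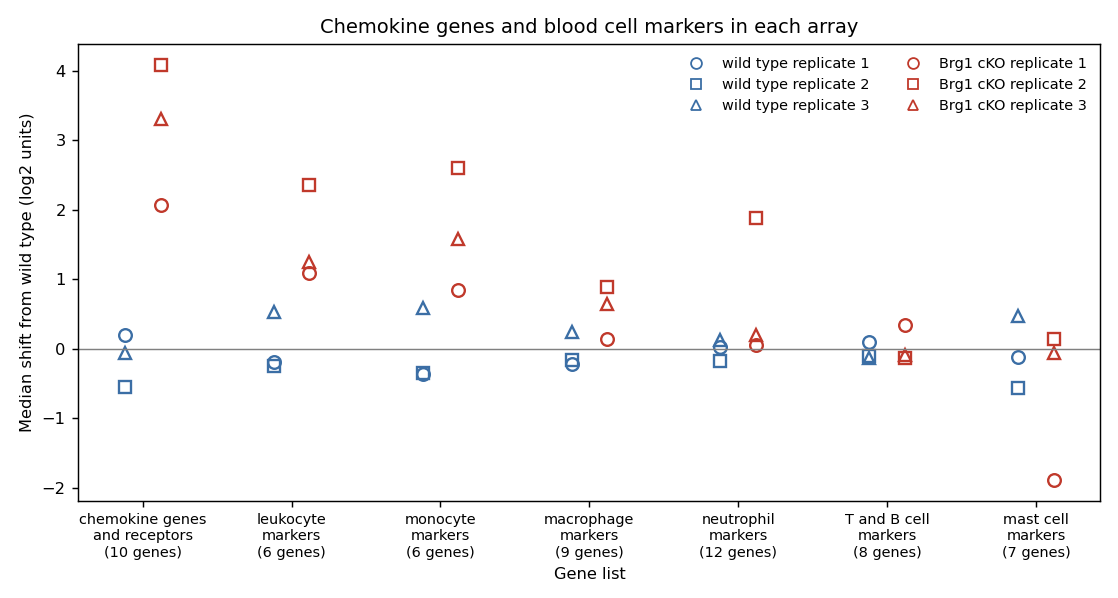
Median log2 shift (vertical axis) of the 10 chemokine and receptor genes and of 6 lists of blood cell markers (horizontal axis) in each array, with wild-type arrays each set against the remaining pair of wild-type arrays and Brg1 cKO arrays against the mean of all 3. The 10 genes lie at 2.06, 4.09 and 3.31 in Brg1 cKO replicates 1 to 3 and the leukocyte markers at 1.09, 2.35 and 1.24, while T and B cell markers lie at 0.34, -0.13 and -0.09.

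Epidermis and lens markers were compared in the same arrays. Of 7 measured epidermis markers, Krt16 and Krt6b, keratins induced by wounding, rose by 6.93 (adjusted p = 0.000901) and 3.35 (adjusted p = 0.00824), and Krt1, the first of the list, differed by -0.60 (adjusted p = 0.784). Krt6b failed without wild-type replicates 1 (0.0725) and 3 (0.0554). By the median over the 7 markers, the Brg1 cKO arrays lay 0.45, 0.99 and 0.27 above wild type in replicate order, and the summed intensity, to which Krt16 and Krt6b add most of the increase, was 3082 to 4620 in wild type, against 6975 to 11718 in Brg1 cKO. Epithelial cells are a known source of Cxcl1 and Cxcl5, and the part of epithelium in these values was not tested. All 6 measured lens markers were lower without overlap, beside 13.7% of all probe sets without overlap in either direction. Of these markers 0 passed, and 6 were lower at an unadjusted p under 0.05, beside 8.4% in either direction. Cryaa, the alpha A-crystallin gene, read 13.93 to 14.01 in wild type, against 12.43, 13.41 and 12.27 in Brg1 cKO replicates 1 to 3. Brg1 cKO replicate 2 thus had the highest lens values of the Brg1 cKO arrays and also the highest values of 8 of the 10 chemokine genes. Its 3' to 5' difference of the actin control probe sets, which widens as RNA degrades, was 1.34, beside 1.28 and 0.98 in the other Brg1 cKO arrays and 0.93 to 1.12 in wild type. The same difference of the Gapdh control was 1.05, beside 0.73 in both other Brg1 cKO arrays and 0.75 to 0.87 in wild type. The part of RNA quality in the chemokine values was not tested.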

How the data were processed

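RNA of 6 newborn eyeballs, 3 Brg1 cKO and 3 wild type, was amplified from a small amount of total RNA and hybridised to Affymetrix Mouse Genome 430A 2.0 arrays, 1 per sample. The deposited table holds linear intensities, which the authors made with RMA (background adjustment, normalization between arrays, summary of each probe set). Its version is not given in the sources used. RMA compresses dim and bright signals, so folds there may be understated, which was not tested. Without detection calls dim probe sets were given no bound. Whether probe sets of related chemokines cross-hybridise was not tested.

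Intensities were converted to log2, and 64 control rows were left out of 22690. Genotype was fitted as the only term for 22626 probe sets with limma 3.58.1 in R 4.3.3, with a two-sided moderated test and Benjamini-Hochberg adjustment over all of them (threshold 0.05). Differences are Brg1 cKO minus wild type in log2 units, with the SE of the model. The fit was tested on simulated data, and the outcome is not given here. In the real data the spread could differ between groups. The SD was larger in Brg1 cKO than in wild type for Ccl3 (1.68 against 0.27) and Ccl4 (1.52 against 0.08). For Ccl7 it was smaller (0.82 against 1.12). With 3 arrays against 3, an exact permutation test cannot go below p = 0.1, so none is printed. The number of arrays limits the precision. The samples are called biological replicates, and array medians lay between 169.1 and 185.5.

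The 10 genes, the gene lists and the rule for named genes were chosen with earlier results of these data known. Named are the 10 genes, every gene past the threshold in the other chemokine, receptor, inducer and signalling lists, or else the 3 with the smallest p, the risen genes and first gene of each blood cell and epidermis marker list, and the 5 genes nearest in profile to Cxcl2 and Ccl2. Cluster neighbours, Ngp, Elane, Cryaa and the genes nearest in profile to Cxcl5 and Cxcl1 were named after their values were seen. Lists for platelets, erythroid cells, skeletal muscle and mast cells had 0 genes past the threshold. Alternatives were a pseudocount, an intensity filter, other normalizations, moderation and weights, a replicate block, other call rules and probe sets, and leaving out each array. The intensity filter kept Cxcl1, Cxcl2, Cxcl5, Ccl3, Ccl4, Ccl7 and Ccr1, whose wild-type means lay under log2 4.84. For these genes that filter is no independent check. Replicate numbers did not pair the samples by the check used (correlations of 0.06, 0.08 and 0.13 between deviations of same-numbered arrays).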

Additional observations from a re-analysis of the deposited data

How the results depend on the processing

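Of the 10 chemokine and receptor genes, 3 passed with all arrays, beside 0.305% of all probe sets called higher. When single arrays were left out 1 to 6 passed, beside 0.0663% to 0.504%. With 16 added to the intensities 1 passed, beside 0.0796%. An intensity trend and robust moderation gave 7, beside 0.411%, and array weights gave 7, beside 0.451%. The mean of a gene's probe sets gave 6, adjusted over 12393 genes in place of 22626 probe sets, with no share counted. That mean altered the values of only Ccl9 and Ccr1 among the 10. By call rules without adjustment, 9 were called at an unadjusted p under 0.05 with a fold over 1.5, beside 3.54% of all probe sets called higher. Template matching (correlation with the genotype template) with that fold gave 8, beside 1.98%. With the replicate number as a block, 1 of the 10 genes (Cxcl5), 0 other chemokine genes and 45 probe sets passed, and Cxcl2 had an adjusted p of 0.0815 and Ccl9 of 0.132. Quantile normalization lost Ccl9, and the intensity filter left Cxcr2 untested. The median difference of the 10 genes was 3.08, 2.45 with 16 added and 2.62 to 3.66 without single arrays. Over all probe sets, the 115 calls became 32 with 16 added, 190 with array weights and 24 to 216 without single arrays. Of the other chemokine and receptor genes, 1 passed, 0 with 16 added, 2 with array weights and 0 to 4 without single arrays. Ccr2 reversed with another probe set (-0.031). Of 133 values of the 10 genes under the alternatives, 0 changed sign, 14 lost and 13 gained a call. The number of genes without overlap stayed at 8 or 9. Signal near the low end limits the 8 genes with dim wild-type means, and the cause of the changes was not tested.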

Other observations

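Some chemokines outside the group described lay well above the low end in wild type. Cxcl13, which attracts B cells, read 7.57, 6.68 and 8.32 in wild type, against 3.72, 7.99 and 6.14 in Brg1 cKO. The difference was -1.57 (adjusted p = 0.757). Its second probe set read 6.31, 6.65 and 7.47 against 3.87, 6.78 and 4.40, with replicate 3 low too, and differed by -1.79 (adjusted p = 0.57). Brg1 cKO replicate 1, the lowest of the 6 in Cxcl13, had the lowest values of the mast cell protease genes, with Cma1 at 7.73 beside 9.44 to 10.27 elsewhere and Tpsb2 at 5.98 beside 8.10 to 9.13. Cxcl12, which binds Cxcr4, read 9.64 to 11.22 over the 6 arrays, and Cxcr4 itself 11.83 to 12.32, with differences of 0.23 and -0.26 that did not pass (adjusted p = 0.926 and 0.781), while a second Cxcl12 probe set differed by 1.11 (adjusted p = 0.526). These genes were chosen after their values were seen.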
